A study of Mus musculus with 2 samples.

Results

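C1q-high macrophages without Lyve1 or Gpnmb made up 1094 of the 36642 cells that passed the quality limits in a pair of single-cell libraries from mouse pancreatic tumors. They were selected on their transcripts alone: at least 0.3% of a cell's unique molecular identifiers (UMIs, each counting 1 captured transcript) from C1qa, C1qb and C1qc together, no UMI of Lyve1, at most 1 of Gpnmb, at most 1 of the cell cycle genes Top2a, Mki67, Birc5 and Ube2c together, and at most 2 of the tumor transcripts Krt8, Krt18 and Cdkn2a together. The quality limits were at least 1000 UMIs, at least 200 genes and at most 5% mitochondrial UMIs. The tumors grew from KPC cells, a mouse pancreatic ductal adenocarcinoma line, in the pancreas of male C57BL/6 mice aged 5 to 7 weeks. In the iIRE group, tumors 7 to 9 mm across received insufficient irreversible electroporation, 99 pulses of 100 μs at 1000 V and 1 Hz between needles 5 mm apart, and were collected on day 3, and the control group consisted of tumors without the pulses (untreated or needle only, as the study describes them in different places) collected on the same day. Each group was 1 library, and the number of mice behind it is not named in the sources used here. There was no replicate, so no test between the groups was possible, treatment and library cannot be told apart, and every interval given is a 95% interval that covers counting error only.

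C1q is the recognition subunit of the classical complement pathway, built from chains encoded by C1qa, C1qb and C1qc, and among the cells of a tumor its main source is the macrophage. C1q-rich macrophages of tumors are known for taking up dying cells, for cholesterol transport through apolipoprotein E (Apoe) and for presenting antigen to T cells on major histocompatibility complex (MHC) class II molecules. Their numbers are fed by blood monocytes that enter through the receptor Ccr2 and by macrophages that already lived in the tissue, of which Lyve1 marks one kind, while Gpnmb marks macrophages loaded with lipid.

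The iIRE library held 515 such macrophages among 18828 cells (2.74%, exact interval 2.51 to 2.98%), and the control library held 579 among 17814 cells (3.25%, 2.99 to 3.52%), a log2 ratio of -0.25 with a counting interval of -0.42 to -0.08. Of the C1q-high cells within the tumor transcript limit they were 515 of 830 in iIRE (62.0%, 58.6 to 65.4%) and 579 of 847 in control (68.4%, 65.1 to 71.5%). The step that set aside the most of these C1q-high cells was the cell cycle limit, with 170 dividing cells in iIRE and 125 in control. The cells were shallower in the iIRE library, with a median of 5089 UMIs and 1882 genes, against 6375 UMIs and 2149 genes in control. Because the Lyve1, Gpnmb, cell cycle and tumor transcript limits are fixed UMI counts, the shares above depend on depth as well. No barcode was shared between the libraries by the selected cells, while 425 were shared among all cells past the quality limits. The summed UMIs were 2706425 in iIRE and 3723587 in control, and levels below are counts per 1000000 UMIs (CPM) of these sums.

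The threshold values describe the choice and test nothing. The 3 C1q genes took a median of 1.28% of UMIs in iIRE cells and 1.33% in control cells. The lowest cell inside the limit had 0.308% in iIRE and 0.3001% in control, and the highest cell outside had 0.297% in iIRE and 0.299% in control. Few cells lay near it, since 31 iIRE and 24 control cells fell between 0.3 and 0.4%, and 26 iIRE and 20 control cells between 0.2 and 0.3%. A Lyve1 count of 1 kept out 18 iIRE and 25 control cells, and a Gpnmb count of 2 kept out 9 iIRE and 8 control cells, while 18 iIRE and 24 control cells with 1 Gpnmb UMI stayed in. The cell cycle limit ran through a denser region, with 81 iIRE and 94 control cells inside it at 1 UMI and 21 iIRE and 22 control cells outside it at 2 UMIs. At the tumor transcript limit, 8 iIRE and 15 control cells were inside with 2 UMIs and 2 iIRE and 6 control cells outside with 3.

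The macrophage label held in both libraries. C1qa, C1qb and C1qc, which chose the cells, stood at 4781, 5723 and 4086 CPM in iIRE and at 5340, 5821 and 4013 CPM in control. Genes that the rule did not use were as clear. Apoe reached 12682 CPM in iIRE and 13631 CPM in control, and Csf1r, the receptor for the growth factor on which macrophages depend, 689 CPM in iIRE and 786 CPM in control. Ccl12, a chemokine that attracts monocytes, reached 1439 CPM in iIRE and 1564 CPM in control, and Adgre1, which encodes the F4/80 antigen, 345 CPM in iIRE and 328 CPM in control. In tumor-type cells, taken as cells with at least 10 UMIs of Krt8, Krt18 and Cdkn2a and C1q under 0.1% of UMIs, Apoe stood at 62.6 CPM in iIRE and 57.0 CPM in control and Csf1r at 8.46 CPM in iIRE and 7.55 CPM in control.

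Transcripts of other lineages were scarce but not absent. The summed level of 14 T and NK cell markers was 21.4 CPM in iIRE and 33.6 CPM in control, with 6 of the 14 at 0 in iIRE and 4 in control, and that of 11 tumor epithelial markers was 47.3 CPM in iIRE and 43.0 CPM in control. Neutrophil markers summed to 172 CPM in iIRE and 104 CPM in control, dendritic cell markers to 28.8 CPM in iIRE and 70.6 CPM in control, and acinar enzyme markers to 197 CPM in iIRE and 116 CPM in control. Osteoclast markers summed to 412 CPM in iIRE and 134 CPM in control, with 68.3% of the iIRE UMIs in 1 cell, and fibroblast markers to 176 CPM in iIRE and 427 CPM in control, with 71.4% of the iIRE UMIs in 1 cell and 81.8% of the control UMIs in another. The acinar UMIs were spread more widely, with at least 3 in 64 iIRE cells (12.4%) and 47 control cells (8.12%). No doublet caller was run, and such cells stayed in unless a result is given without them.

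Between the libraries, 8189 genes had at least 50 UMIs over the selected cells of both. A log2 ratio, iIRE over control, was taken after adding 10 CPM to both levels. Of these genes 952 (11.6%) were at least 1.2-fold higher in iIRE and 584 (7.13%) at least 1.2-fold lower, and the median ratio was 0.03. Centred on the median of the genes with at least 200 UMIs (0.03) the counts were 780 higher and 734 lower, so the excess of higher over lower genes depended on the centring. The lists below are read against those background shares. Of 14 macrophage identity genes, Maf and Fcgr1 were at least 1.2-fold higher in iIRE and Cd14 and Cx3cr1 at least 1.2-fold lower. The genes at the ends of the ranking, restricted to those detected in 10% or more of either library's cells, are shown in the plot of the 12 highest and 12 lowest ratios.

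**Figure D1:**
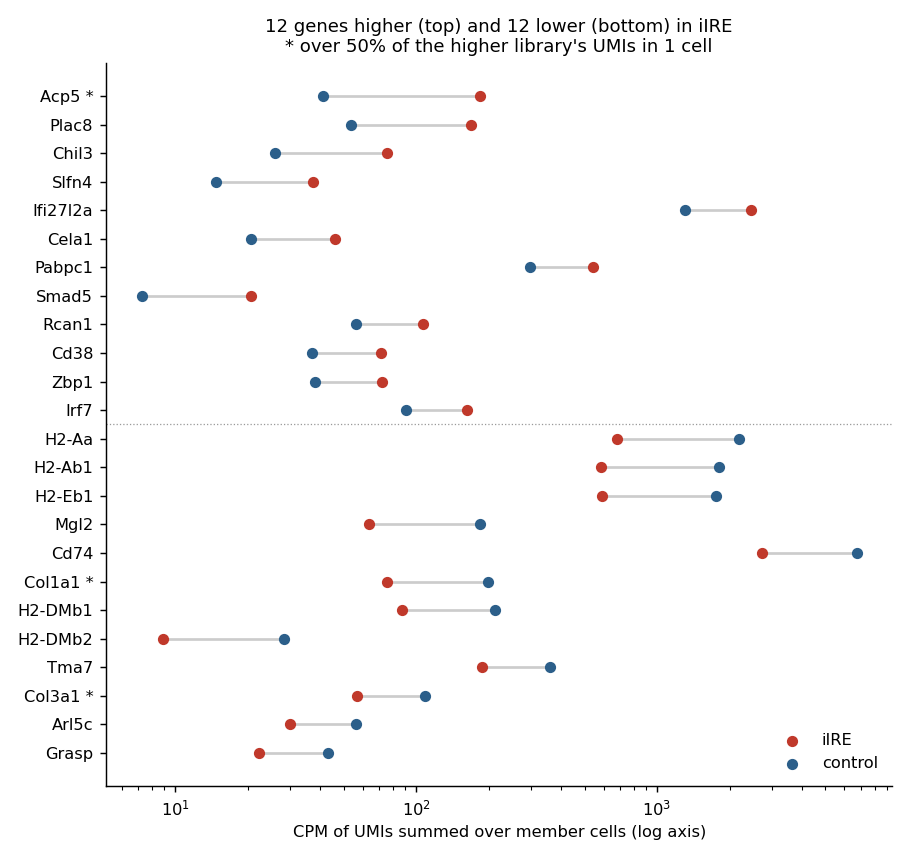
Levels of the 12 genes with the highest and the 12 with the lowest ratio between the libraries, as CPM summed over the selected macrophages on a log axis, with iIRE in red and control in blue. MHC class II genes hold 6 of the 12 lowest places, and the starred genes Acp5, Col1a1 and Col3a1 owed over 50% of their UMIs in the higher library to 1 cell.

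MHC class II genes showed the lowest median ratio of all the gene lists examined. All 7 of the 10 listed class II genes that had enough UMIs were at least 1.2-fold lower in iIRE, beside 7.13% of all genes, with a median log2 ratio of -1.30. Without cells that held at least 3 UMIs of markers of another lineage, the median was -1.07 and 6 of the 7 were past 1.2-fold. The lineages of this filter were T and NK, B, neutrophil, endothelial, fibroblast and acinar cells. Dendritic cell and osteoclast markers were not part of it, so cells holding those stayed in. H2-Aa, the alpha chain of the H2-A molecule, stood at 685 CPM in iIRE and 2197 CPM in control, a log2 ratio of -1.67 with a counting interval of -1.76 to -1.61 for the ratio without added CPM. Its partner H2-Ab1 had 583 CPM in iIRE and 1799.9 CPM in control (log2 ratio -1.61), and H2-Eb1, the beta chain of H2-E, had 589 CPM in iIRE and 1760.0 CPM in control (-1.56). The genes that serve peptide loading followed in the same direction. Cd74, the invariant chain that escorts class II molecules, had 2739 CPM in iIRE and 6746 CPM in control (-1.30), and H2-DMb1, a chain of the peptide exchange factor H2-DM, had 87.2 CPM in iIRE and 212 CPM in control (-1.19). The smallest difference among them was that of H2-DMa, the other chain of H2-DM, with 218 CPM in iIRE and 275 CPM in control (-0.32).

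Mgl2, a lectin gene of macrophages and dendritic cells, accompanied the class II genes, with 63.9 CPM in iIRE and 184 CPM in control (log2 ratio -1.40). MHC class I genes did not share the shift as a list, with a median log2 ratio of 0.007. Of 14, only Tapbp, which helps load class I molecules, was at least 1.2-fold higher in iIRE (log2 ratio 0.33). H2-Q7, H2-Q4 and H2-Q6 were at least 1.2-fold lower (-0.48, -0.48 and -0.30). These counts stand beside 11.6% of all genes higher and 7.13% lower. The H2-Q genes are near-identical copies of each other, so the counting could split their reads.

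Promoters of class II genes are known for a conserved set of elements, of which the Y box (TGATTGG here, searched on both strands), bound by the factor NF-Y, is one. In the window of 250 bases before the start of the transcript, this motif occurred in 4 of the 5 class II genes that could be matched and in 2375 of 32851 promoters (7.23%). The 4 are shown because these genes moved together, as the 100 bases before the start site, 5′ to 3′ on the strand of the gene, from RefSeq on the build GRCm38.p6, with the Y box in capitals. It begins at -50 in H2-Aa (chr17:34287824-34287923, minus strand), at -61 in H2-Eb1 (chr17:34305767-34305866, plus strand), at -63 in H2-DMb1 (chr17:34153091-34153190, plus strand) and at -92 in H2-DMb2 (chr17:34145149-34145248, plus strand), counted from the start site. A match is a description of the letters and not of binding.
H2-Aa: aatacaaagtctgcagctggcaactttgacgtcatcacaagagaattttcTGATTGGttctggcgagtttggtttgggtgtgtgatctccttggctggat
H2-Eb1: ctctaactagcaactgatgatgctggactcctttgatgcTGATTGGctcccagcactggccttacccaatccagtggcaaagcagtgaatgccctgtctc
H2-DMb1: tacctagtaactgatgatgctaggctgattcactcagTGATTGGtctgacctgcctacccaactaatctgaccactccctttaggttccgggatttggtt
H2-DMb2: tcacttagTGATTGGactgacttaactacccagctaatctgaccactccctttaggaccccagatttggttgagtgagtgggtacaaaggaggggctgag

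The class II level was spread very unevenly from cell to cell. To compare cells at 1 depth, each was thinned to 2000 UMIs, which left 468 iIRE and 529 control cells and set aside 47 iIRE and 50 control cells that were shallower. The summed UMIs of H2-Aa, H2-Ab1, H2-Eb1 and Cd74 had a median of 0.5 in iIRE and 1 in control, and a 90th percentile of 17 in iIRE and 92.4 in control. A count of 0 was found in 234 iIRE cells (50%) and 204 control cells (38.6%). At least 10 UMIs were found in 68 iIRE cells (14.5%, exact interval 11.5 to 18.1%) and 164 control cells (31.0%, 27.1 to 35.1%). This line was drawn on a continuous range, with 25 iIRE and 29 control cells within 30% of it, and was chosen with the values known. In tumor-type cells the same count was reached in 0.124% of iIRE cells and 0.267% of control cells.

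**Figure D2:**
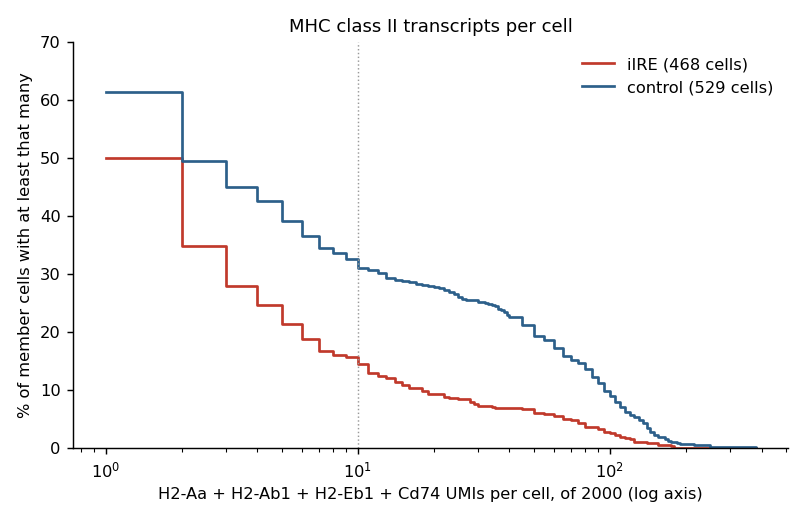
Share of the selected macrophages with at least a given number of MHC class II UMIs (H2-Aa, H2-Ab1, H2-Eb1 and Cd74) after thinning each cell to 2000 UMIs, for iIRE in red and control in blue, with the count on a log axis and a dotted line at 10 UMIs. The iIRE curve lies below the control curve from 1 UMI on, at 14.5% against 31.0% of cells at 10 UMIs and at 6.84% against 22.5% at 40 UMIs.

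Levels inside each range are a description, since the ranges were cut on these same transcripts. Among cells with at least 10 class II UMIs, Cd74 stood at 14910.0 CPM in iIRE and 20310.0 CPM in control (log2 ratio -0.45) and H2-Aa at 4260.3 CPM in iIRE and 6931 CPM in control (-0.70). Among the remaining cells, Cd74 stood at 484 CPM in iIRE and 573 CPM in control (-0.24) and H2-Aa at 24.4 CPM in iIRE and 36.6 CPM in control (-0.44), beside 13.7 CPM in iIRE and 21.9 CPM in control for H2-Aa in tumor-type cells. The ranges also differed in how many cells held at least 3 UMIs of markers of another lineage: 7 of 68 class II-high cells in iIRE (10.3%) and 38 of 164 in control (23.2%), and 80 of 400 class II-low cells in iIRE and 51 of 365 in control. The part of these cells in the values by range was not tested. The median of each cell's C1q share was 1.2003% in iIRE and 1.19% in control for the class II-high cells, and 1.37% in iIRE and 1.47% in control for the others.

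Most genes named next were ranked on agreeing between the libraries, and others did not: Isg15 had a log2 ratio of class II-high over class II-low cells of -0.54 in iIRE and 0.91 in control, and Ly6c2 of -2.23 in iIRE and 1.17 in control. These comparisons are within a library, over cells sorted by their own transcripts, and are descriptions. Of all 8189 genes, 16.0% in iIRE and 14.3% in control were at least 1.2-fold higher in class II-high than in class II-low cells, and 40.6% in iIRE and 29.3% in control at least 1.2-fold lower. Mgl2 stood at 293 CPM in class II-high and 22.6 CPM in class II-low cells of iIRE, and at 491 CPM in class II-high and 44.2 CPM in class II-low cells of control. Itgax, which encodes the integrin CD11c, stood at 92.8 CPM in class II-high and 6.79 CPM in class II-low cells of iIRE, and at 99.1 CPM in class II-high and 6.03 CPM in class II-low cells of control. Il1r2, a decoy receptor for interleukin 1, Plbd1, Ccl6, Trem1 and Il1b lay on the same side in both libraries. Ccr2, the receptor of incoming monocytes, stood at 440.1 CPM in class II-high and 167 CPM in class II-low cells of iIRE, and at 433 CPM in class II-high and 134 CPM in class II-low cells of control.

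Resident-type macrophage genes were mostly lower in class II-high cells. Of 14, 12 in iIRE and 14 in control were at least 1.2-fold lower and 0 at least 1.2-fold higher in either library, beside the 40.6% and 29.3% of all genes given above. Pf4, which encodes a CXC chemokine, stood at 435 CPM in class II-high and 1823 CPM in class II-low cells of iIRE, and at 273 CPM in class II-high and 1400.3 CPM in class II-low cells of control. Folr2, a folate receptor of resident macrophages, stood at 54.7 CPM in class II-high and 246 CPM in class II-low cells of iIRE, and at 35.3 CPM in class II-high and 225 CPM in class II-low cells of control. Gas6, a bridge between dying cells and their receptors, Cbr2, Igf1, Maf and Adgre1 lay on the same side in both libraries.

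Interferon-stimulated genes ran the other way between the libraries. These genes are switched on by interferon receptors and restrict viruses or sense nucleic acids. Of 25 with enough UMIs, 20 were at least 1.2-fold higher in iIRE and 0 at least 1.2-fold lower, beside 11.6% and 7.13% of all genes, with a median log2 ratio of 0.47. Ifi27l2a had 2461 CPM in iIRE and 1303 CPM in control (log2 ratio 0.91, counting interval 0.86 to 0.97 without added CPM). Irf7, the factor that amplifies type I interferon, had 162 CPM in iIRE and 91.0 CPM in control (0.77), and Zbp1, a sensor of nucleic acids, had 72.4 CPM in iIRE and 38.1 CPM in control (0.78). Isg15, a ubiquitin-like protein gene, had 176 CPM in iIRE and 104 CPM in control (0.71).

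The share of cells with a transcript was higher in iIRE as well. At 2000 UMIs, Ifi27l2a was found in 82.9% of iIRE and 73.9% of control macrophages, beside 13.1% of iIRE and 7.70% of control tumor-type cells, and Isg15 in 18.2% of iIRE and 12.1% of control macrophages, beside 10.8% of iIRE and 8.90% of control tumor-type cells. Median depths were 8806 UMIs in iIRE and 11611 UMIs in control for the tumor-type cells before thinning. Ly6e had 1904 CPM in iIRE and 1238 CPM in control macrophages (log2 ratio 0.62), but it was found in 94.2% of iIRE and 91.5% of control tumor-type cells at 2000 UMIs, so its share in macrophages, 86.3% in iIRE and 77.1% in control, was not above theirs. Summed over the list, tumor-type cells stood at 3909 CPM in iIRE and 3298 CPM in control, and the part of free tumor RNA in the macrophage values was not tested.

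The interferon-stimulated response element, written here as GAAA, any 2 bases and GAAA again and searched on both strands, is a known element of such genes. It occurred in the window of 250 bases in 11 of the 17 matched genes of the list and in 978 of 32851 promoters (2.98%), and in 0 of the 5 matched class II genes, while the Y box occurred in Cxcl10 and Stat2 of the 17. A pair of these promoters is shown because their genes moved with the list and hold overlapping matches, again as the 100 bases before the start site from RefSeq on GRCm38.p6, with the matches in capitals. In Isg15 (chr4:156200819-156200918, minus strand) 3 matches overlap and the first begins at -78, and in Oas1a (chr5:120907526-120907625, minus strand) 2 overlap and the first begins at -20.
Isg15: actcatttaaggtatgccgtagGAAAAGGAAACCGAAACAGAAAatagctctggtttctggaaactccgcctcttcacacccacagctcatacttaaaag
Oas1a: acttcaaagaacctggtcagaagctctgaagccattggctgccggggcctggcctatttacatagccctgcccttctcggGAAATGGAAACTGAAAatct

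The interferon genes were then compared within each class II range. Of the 25 genes, 23 were at least 1.2-fold higher in the class II-low cells of iIRE than in those of control and 0 at least 1.2-fold lower, beside 14.0% and 8.82% of 7494 genes, with a median log2 ratio of 0.67. In class II-high cells, 18 genes had enough UMIs, 3 (Ifitm3, Gbp2 and Ifi27l2a) were at least 1.2-fold higher in iIRE and 8 at least 1.2-fold lower, beside 17.4% and 22.7% of 3954 genes, with a median of -0.12. Isg15 had 185 CPM in iIRE and 78.4 CPM in control among class II-low cells (log2 ratio 1.14), and 124 CPM in iIRE and 157 CPM in control among class II-high cells (-0.32). Rtp4, a chaperone gene of the interferon response, had 98.6 CPM in iIRE and 50.7 CPM in control among class II-low cells (0.84), and 28.5 CPM in iIRE and 59.4 CPM in control among class II-high cells (-0.85). Gbp2, a guanylate-binding protein gene, was an exception, with 24.0 CPM in iIRE and 22.1 CPM in control among class II-low cells (0.08) and 164 CPM in iIRE and 63.7 CPM in control among class II-high cells (1.24). The difference between the ranges was not tested, and the iIRE class II-high range was only 68 cells.

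**Figure D3:**
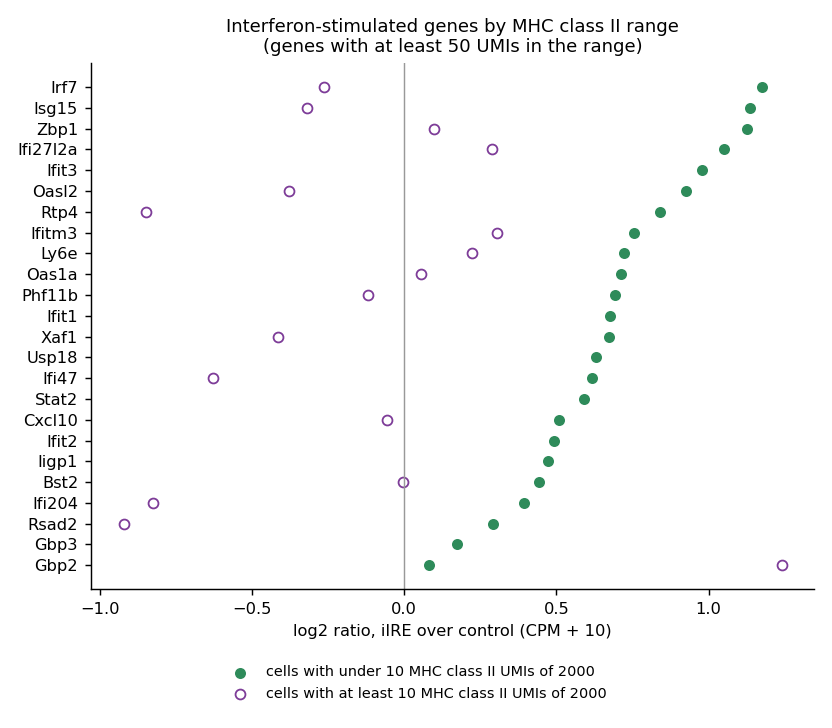
Log2 ratio, iIRE over control, of interferon-stimulated genes among class II-low cells (filled points) and class II-high cells (open points), for genes with at least 50 UMIs in the range. The filled points are all right of 0, with a median of 0.67, and the open points lie around a median of -0.12, with Gbp2 far to the right at 1.24.

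Immediate-early genes, which cells switch on within minutes of a stimulus, were lower in iIRE. Of 22 with enough UMIs, 13 were at least 1.2-fold lower and only Nr4a2 and Egr3 were at least 1.2-fold higher (log2 ratios 0.30 and 0.31, that of Egr3 at -0.02 with cells thinned to 2000 UMIs), beside 7.13% and 11.6% of all genes, with a median log2 ratio of -0.30. Klf2, a transcription factor gene that restrains inflammatory genes, had 694 CPM in iIRE and 1103 CPM in control (log2 ratio -0.66). Jund, a subunit of AP-1, had 862 CPM in iIRE and 1247 CPM in control (-0.53), and Fos, another subunit, had 2262 CPM in iIRE and 2974 CPM in control (-0.39). Atf3 and Dusp1, which damp stress signaling, had log2 ratios of -0.52 and -0.46. Over genes with at least 10 UMIs in a group, the list median was -0.29 in the selected macrophages and below 0 in each neighboring group. It was -0.20 in Lyve1-positive, -0.08 in Gpnmb-positive and -0.31 in dividing C1q-high cells, -0.35 in monocyte-type cells and -0.09 in tumor-type cells.

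**Figure D4:**
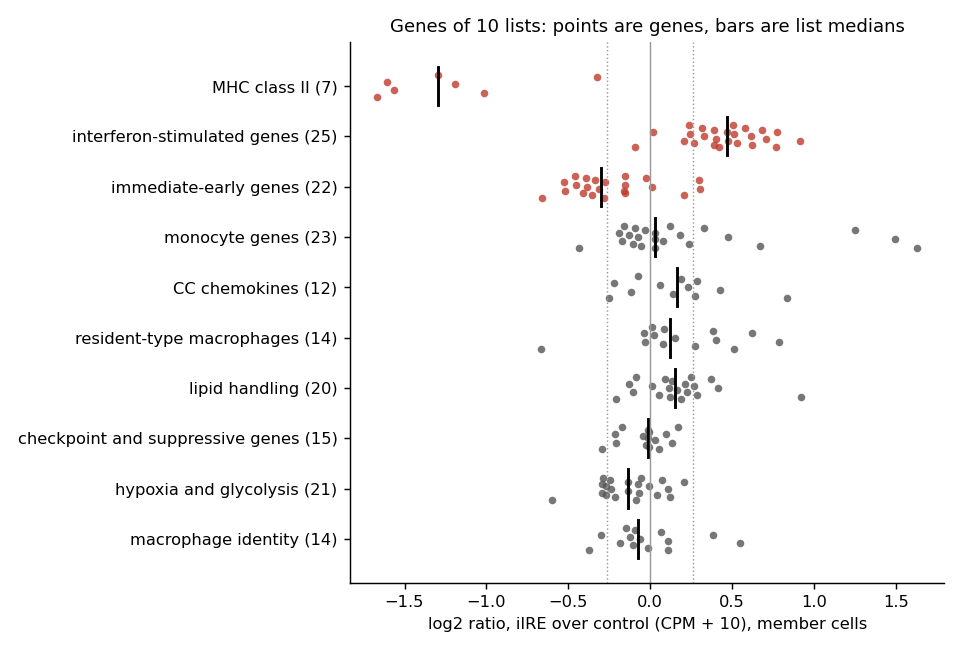
Log2 ratio, iIRE over control, of the genes of 10 lists in the selected macrophages, with 1 point per gene, a bar at the median of each list, the number of genes in parentheses and dotted lines at 1.2-fold. MHC class II and immediate-early genes lie to the left with medians of -1.30 and -0.30, interferon-stimulated genes lie to the right with a median of 0.47, and the other lists spread around 0.

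A few monocyte genes were higher in iIRE. Of 23, Ly6c2, Plac8, Chil3, Ly6a, Vcan and S100a4 were at least 1.2-fold higher, beside 11.6% of all genes. Ly6i was at least 1.2-fold lower (log2 ratio -0.44, and -0.22 without the control cell richest in it), beside 7.13% of all genes. The list median was 0.03. Without cells holding markers of another lineage, Vcan and S100a4 fell short of 1.2-fold, at 0.21 and 0.20. Ly6c2, the surface marker of inflammatory monocytes, had 117 CPM in iIRE and 31.2 CPM in control (log2 ratio 1.63), and was found at 2000 UMIs in 7.05% of iIRE and 3.78% of control cells, beside 1.28% of iIRE and 0.519% of control tumor-type cells. Chil3, a chitinase-like gene of monocytes, had 75.7 CPM in iIRE and 26.1 CPM in control (1.25), and was found in 8.33% of iIRE and 3.40% of control cells, beside 0.179% of iIRE and 0.641% of control tumor-type cells. These transcripts therefore came from a minority of cells. Among the class II-low cells Ly6c2 stood at 138 CPM in iIRE and 19.7 CPM in control, and among the class II-high cells at 21.4 CPM in iIRE and 56.8 CPM in control. Plac8 had 168 CPM in iIRE and 53.4 CPM in control (1.49), but tumor-type cells also carried it, in 47.4% of iIRE and 46.2% of control cells against 13.2% of iIRE and 8.13% of control macrophages, so its share is not read as expression by macrophages.

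Chemokines that attract monocytes were abundant in these macrophages in both libraries. Ccl2 and Ccl7, which act through Ccr2, had 2563 and 2106 CPM in iIRE and 2458 and 1915 CPM in control (log2 ratios 0.06 and 0.14), and Ccl12 had a ratio of -0.12. Of 12 CC chemokines, Ccl17, Ccl4, Ccl8 and Ccl3 were at least 1.2-fold higher in iIRE and 0 at least 1.2-fold lower, beside 11.6% and 7.13% of all genes. The median was 0.16. Ccl4, a chemokine of activated macrophages, had 1478 CPM in iIRE and 1099 CPM in control (0.42). All Ccl17 UMIs of iIRE lay in 1 cell, and Ccl8 had a ratio of 0.29 with all cells and -0.02 without the cell richest in it. Ccl3 had a ratio of 0.27, and 0.13 without cells holding markers of another lineage. Among 9 CXC chemokines, Pf4 had 1628 CPM in iIRE and 1053 CPM in control (0.62) and Cxcl10, which attracts T cells through Cxcr3, had 226 CPM in iIRE and 170.3 CPM in control (0.39, and 0.15 without cells holding markers of another lineage). Cxcl13 and Cxcl3 were also at least 1.2-fold higher in iIRE, Cxcl13 with 70.7% of its UMIs in 1 cell. Cxcl14 and Cxcl9 were at least 1.2-fold lower, with ratios of -0.18 and 0.20 once the richest cell of each was left out. The CXC counts stand beside the same 11.6% and 7.13% of all genes, and the median of the 9 was -0.07.

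Resident-type macrophage genes leaned higher in iIRE although Lyve1-positive cells had been set aside. Of 14, Cd38, Pf4, Siglec1, Cbr2, Folr2 and Wwp1 were at least 1.2-fold higher and Ednrb at least 1.2-fold lower, beside 11.6% and 7.13% of all genes. The median was 0.12. Cd38, an enzyme that consumes NAD, had 71.3 CPM in iIRE and 37.1 CPM in control (log2 ratio 0.79). Siglec1, a sialic acid receptor that interferon also raises, had 79.1 CPM in iIRE and 52.4 CPM in control (0.51). Folr2 had 219.8 CPM in iIRE and 166 CPM in control (0.38, and 0.25 without cells holding markers of another lineage) and was found at 2000 UMIs in 28.0% of iIRE and 21.7% of control cells, beside 0.655% of iIRE and 0.533% of control tumor-type cells.

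Inflammatory, checkpoint and alternative activation genes had list medians of -0.01, -0.01 and -0.005. Their counts below stand beside 11.6% of all genes at least 1.2-fold higher and 7.13% at least 1.2-fold lower. Of 15 inflammatory genes, Il18 was at least 1.2-fold higher in iIRE and Il1a, Il1b and Tnfaip3 were at least 1.2-fold lower. Il1b, the main secreted form of interleukin 1, had 1443 CPM in iIRE and 1928 CPM in control (log2 ratio -0.42), and Il1a had 203 CPM in iIRE and 320 CPM in control (-0.63). Of 15 checkpoint and suppressive genes, Nt5e, which makes adenosine, was the only 1 past 1.2-fold (-0.30), and Cd274, which encodes PD-L1, had 56.2 CPM in iIRE and 57.5 CPM in control (-0.03, interval -0.34 to 0.27 without added CPM). Arg1, the arginase of alternatively activated macrophages, had 1079.7 CPM in iIRE and 1083 CPM in control (0.00), and Mrc1, which encodes the mannose receptor, had 569 CPM in iIRE and 536 CPM in control (0.09). Both belong to the list of alternative activation genes. Of its 13 genes with enough UMIs, Chil3 was at least 1.2-fold higher (1.25). Mgl2 (-1.40), Socs3, Clec10a and Klf4 were at least 1.2-fold lower.

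Some ranked genes belonged to no list above or rested on a single cell. Pabpc1, which binds the tails of messenger RNA, had 541 CPM in iIRE and 296 CPM in control (log2 ratio 0.85), and Tma7, a translation-associated gene, had 187 CPM in iIRE and 359 CPM in control (-0.90). Slfn4, a schlafen gene of the interferon response, Smad5, Rcan1 and Cela1 had ratios of 0.93, 0.83, 0.83 and 0.86, and Arl5c and Grasp both had -0.73. Cela1 encodes an acinar elastase, and the acinar enzyme sum above was higher in iIRE as well. That sum was also higher in iIRE in the Lyve1-positive, Gpnmb-positive, dividing and monocyte-type cells. In tumor-type cells it was lower, at 161 CPM in iIRE and 178 CPM in control. The part of acinar transcripts from other cells in the Cela1 ratio was not tested. Acp5, an acid phosphatase of osteoclasts, had a ratio of 1.92, and 0.51 without the cell that held 66.2% of its iIRE UMIs. Col1a1 and Col3a1, collagen genes of fibroblasts, had ratios of -1.28 and -0.83, and of 0.69 and 1.13 without the control cell richest in each.

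The spread from cell to cell was largest for a mix of abundant genes and genes that few cells carried. Over cells at 2000 UMIs, the variance was 22.4 times the mean in iIRE and 55.6 times in control for Saa3, an acute-phase gene, and 35.7 times in iIRE and 38.9 times in control for Cd74, beside a median of 1.14 times in both libraries over 1344 genes with a mean of at least 0.2 UMIs. Apoe, Fth1 (ferritin heavy chain) and Hmox1, which breaks down heme, were also among the 15 genes with the largest values, as were H2-Aa, H2-Eb1, H2-Ab1, Lyz2, Ccl8 and Cxcl2. Saa3 had 248 CPM in iIRE and 545 CPM in control, with 22.6% of the control UMIs in 1 cell. Hmox1 had 411 CPM in iIRE and 577 CPM in control.

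The cells were also divided by their level of Arg1. At 2000 UMIs, 131 iIRE cells (28.0%) and 125 control cells (23.6%) had at least 3 UMIs of Arg1, and 236 iIRE cells (50.4%) and 284 control cells (53.7%) had 0. Cells high for class II were also high for Arg1 in 32.4% of iIRE cases and 21.95% of control cases, beside 27.3% of the class II-low cells in iIRE and 24.4% in control. Of 7 class II genes, 1 in iIRE and 7 in control were at least 1.2-fold lower in Arg1-high than in Arg1-0 cells, with medians of -0.02 in iIRE and -0.56 in control, beside 37.8% of all genes in iIRE and 35.8% in control. Hypoxia and glycolysis genes went with Arg1. Of 21, 20 were at least 1.2-fold higher in Arg1-high than in Arg1-0 cells in iIRE and 20 in control, beside 14.1% of all genes in iIRE and 14.3% in control. Hilpda, a lipid droplet gene that hypoxia induces, stood at 756 CPM in Arg1-high and 93.6 CPM in Arg1-0 cells of iIRE, and at 761 CPM in Arg1-high and 98.6 CPM in Arg1-0 cells of control.

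Other companions of Arg1 had the same direction in both libraries. Slc7a2, which imports arginine, stood at 201 CPM in Arg1-high and 9.82 CPM in Arg1-0 cells of iIRE, and at 243 CPM in Arg1-high and 11.8 CPM in Arg1-0 cells of control. F10, Adam8, Bnip3, Mmp12 and Vegfa were also higher in Arg1-high cells. Interferon-stimulated genes lay on the other side, with 19 of 25 at least 1.2-fold lower in Arg1-high cells of iIRE and 20 of 25 in control, beside the same background shares. Ccl8 stood at 16.3 CPM in Arg1-high and 356 CPM in Arg1-0 cells of iIRE, and at 9.52 CPM in Arg1-high and 309 CPM in Arg1-0 cells of control. Vcam1, Gpr34 and Fcrls were lower in Arg1-high cells as well. C1q took a median of 0.947% of UMIs in iIRE and 0.969% in control in the Arg1-high cells, and 1.63% in iIRE and 1.68% in control in the Arg1-0 cells.

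The cells were divided as well by their monocyte-attracting chemokines. At 2000 UMIs, 112 iIRE cells (23.9%) and 127 control cells (24.0%) had at least 20 UMIs of Ccl2, Ccl7 and Ccl12 together, and 182 iIRE and 205 control cells had 4 or fewer. The share hardly differed between the libraries. In cells high for these chemokines, 14 of 14 resident-type genes in iIRE and 12 of 14 in control were at least 1.2-fold higher, beside 23.7% of all genes in iIRE and 19.8% in control. Class II genes lay on the other side, since all 7 class II genes were at least 1.2-fold lower in the chemokine-high cells of both libraries, beside 25.7% of all genes in iIRE and 21.5% in control. Ccl4 stood at 3417 CPM in chemokine-high and 462 CPM in chemokine-low cells of iIRE, and at 2425 CPM in chemokine-high and 375 CPM in chemokine-low cells of control. Ch25h, which makes an oxysterol, Cxcl10, Cbr2, Gas6, Mrc1, Il10 and Tnf lay on the same side. Only 8.04% of chemokine-high cells in iIRE and 17.3% in control were also high for class II, beside 16.6% of the other cells in iIRE and 35.3% in control.

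Beside the other C1q-high cells, the selected macrophages differed by more than the genes of the rule. These are descriptions, since the groups were cut from the same transcripts. Of the Lyve1, Gpnmb and cell cycle limits, each other C1q-high group was outside only the limit it is named for. The 54 iIRE and 67 control Lyve1-positive cells had more Ccl8, with 214 CPM in the selected macrophages and 1227 CPM in Lyve1-positive cells of iIRE, and 173 CPM in the selected macrophages and 1418 CPM in Lyve1-positive cells of control. Fcna, Ednrb, Gas6, Cd163 and Cbr2 were lower in the selected macrophages too. Ccr2 was higher, with 210 CPM in the selected macrophages and 22.2 CPM in Lyve1-positive cells of iIRE, and 230 CPM in the selected macrophages and 35.0 CPM in Lyve1-positive cells of control. Mmp12, a macrophage elastase, Plbd1 and Axl, a receptor for dying cells, were higher in the selected macrophages in both libraries.

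Beside the 40 iIRE and 37 control Gpnmb-positive cells, Fabp5, a fatty acid carrier, stood at 236 CPM in the selected macrophages and 2479 CPM in Gpnmb-positive cells of iIRE, and at 194 CPM in the selected macrophages and 1303 CPM in Gpnmb-positive cells of control. Spp1 (osteopontin), Lgals3 and Mmp12 were lower in the selected macrophages as well, and Cxcl10, Ccnd1 and Col14a1 higher. Thbs1, Vegfa, Hmox1, Il1b and Ccl6 were higher in the selected macrophages than in the 170 iIRE and 125 control dividing C1q-high cells, in both libraries. Thbs1 stood at 707 CPM in the selected macrophages and 268 CPM in dividing cells of iIRE, and at 650.4 CPM in the selected macrophages and 170.2 CPM in dividing cells of control.

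Monocyte-type cells, chosen by at least 2 UMIs of Ly6c2 and a C1q share under 0.1%, numbered 79 in iIRE and 45 in control. They also had at most 5 UMIs of S100a8 and S100a9 together, a limit on T and NK cell markers, and the cell cycle and tumor transcript limits given above. Fcrls had 229 CPM in the selected macrophages of iIRE and 234 CPM in those of control, and no UMI in the monocyte-type cells of either library. Cd63, a lysosomal tetraspanin, Timp2, Cbr2 and Pf4 were also higher in the selected macrophages. Hp (haptoglobin), Vcan and Ms4a4c were lower. Hp stood at 17.0 CPM in the selected macrophages and 573 CPM in monocyte-type cells of iIRE, and at 15.6 CPM in the selected macrophages and 569 CPM in monocyte-type cells of control.

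**Figure D5:**
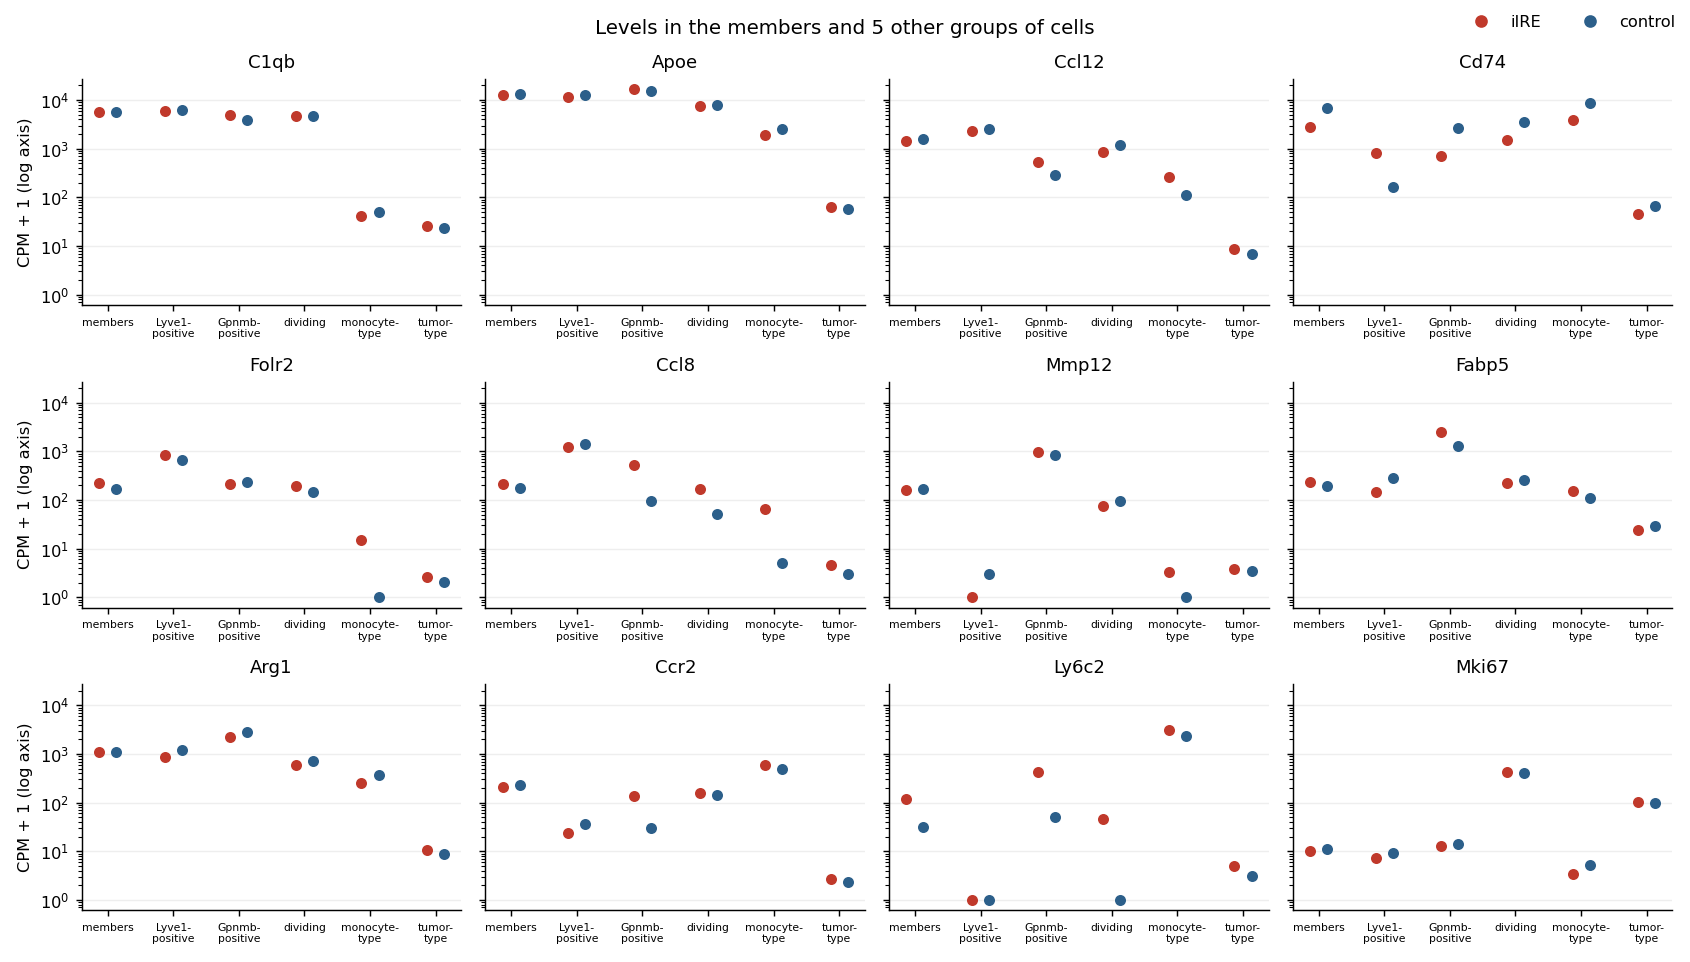
Levels of 12 genes in the selected macrophages (members) and in 5 other groups of cells, as CPM plus 1 on a log axis, with iIRE in red left of control in blue and 1 point per library. C1qb and Apoe are high in all C1q-high groups, Cd74 is lower in iIRE than in control in every group but the Lyve1-positive cells, where 1 cell held 89.6% of the iIRE class II UMIs, and Ly6c2 is highest in the monocyte-type cells.

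The class II share was also taken in the other groups. At least 10 class II UMIs of 2000 were found in 21.1% of iIRE and 41.9% of control monocyte-type cells (exact intervals 12.5 to 31.9% and 27.0 to 57.9%), and in 13.9% of iIRE and 14.8% of control dividing C1q-high cells, whose intervals nearly coincided (8.99 to 20.1% and 8.98 to 22.3%). Among Gpnmb-positive cells they were found in 2 of 40 in iIRE and 5 of 37 in control, and among Lyve1-positive cells in 1 of 52 in iIRE and 1 of 64 in control. Over the dividing cells the summed level of the 4 genes was lower in iIRE, at 2617 CPM in iIRE and 6464 CPM in control, although the shares nearly coincided. Over the Lyve1-positive cells the summed level was higher in iIRE, at 1557 CPM in iIRE and 251 CPM in control, with 89.6% of the iIRE UMIs in 1 cell. The interferon list had a median log2 ratio over genes with at least 10 UMIs of 0.45 in the selected macrophages. It was -0.03 in Lyve1-positive, 0.57 in Gpnmb-positive and -0.16 in dividing C1q-high cells, -0.06 in monocyte-type and 0.095 in tumor-type cells. The log2 ratio of the summed list was 0.65 in the selected macrophages, 0.45 in Lyve1-positive, 0.56 in Gpnmb-positive and 0.42 in dividing C1q-high cells. For monocyte-type and tumor-type cells that ratio was 0.05 and 0.24. These differences between groups were not tested.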

How the data were processed

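The deposited values are raw UMI counts per gene and cell from 10x 5′ libraries, which the authors made with Cell Ranger (7.0.1 in the file header, an earlier version in the study's methods) on mm10, with STAR named in the submitters' processing notes. The matrix held 32285 genes and 37971 barcodes, and the library was read from the barcode ending, with ending 1 taken as the library the labels number 1 (control) and ending 2 as number 2 (iIRE). No sheet that states this map was used here, and every direction between the groups rests on it. The study reports more cells after quality control in iIRE than in control, as under this map. However, it also reports more UMIs and genes per cell on average in iIRE. Under this map the selected cells and the tumor-type cells had lower median UMIs in iIRE than in control. The reason for this conflict in depth was not tested. Members were found by the limits given above, and their counts were summed per library and expressed as CPM. Log2 ratios used 10 CPM added to both levels and genes with at least 50 UMIs. A difference counted as past 1.2-fold without a test, since each group was 1 library. Shares have exact Clopper-Pearson intervals, levels exact Poisson and ratios exact conditional binomial intervals. Named genes were the 12 at each end of the ranking, the 10 at each end beside each neighboring group, the 15 most variable, the 20 most abundant and members of gene lists, the ranked sets leaving out gene models and the genes of mitochondria, ribosomal proteins, hemoglobin and antigen receptors. Thresholds, members and lists were chosen with earlier results of these data known. The scripts, run in Python 3.11.15 with NumPy 2.4.6, SciPy 1.17.1 and pandas 2.3.3, were tested on simulated data. Alternatives included other thresholds, pseudocounts, filters, weights and cells left out. A few genes are counted in the lists but not reported here by name.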

Additional observations from a re-analysis of the deposited data

How the results depend on the processing

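No paired analysis was possible because each group was 1 library, and leaving out a replicate was not possible for the same reason. Counts of genes past the fold were 952 higher and 584 lower in iIRE, but 48 and 68 at 1.5-fold, 386 and 269 of 4177 genes with at least 200 UMIs, and 1541 and 1019 with 1 CPM added. The class II median of -1.30 was -1.57 with 1 CPM added, -1.43 at 200 UMIs, -1.07 without cells holding markers of another lineage and, in an alternative chosen after seeing the data, -1.53 with cells thinned to 2000 UMIs. The direction of single genes turned as follows. Averaging cells equally gave Col3a1 0.17, Ccl8 -0.14 and Cxcl9 0.088, and a C1q limit of 0.5% gave Col3a1 0.0029 and Ccl17 -0.64. Cells without tumor transcripts gave Col1a1 0.77, Col3a1 1.25 and Cxcl9 0.53. Without cells holding markers of another lineage, Col3a1 was 0.53, Ctsk -0.13 and Cxcl13 -0.070. Without the 5% deepest cells, Col1a1 was 0.73, Col3a1 1.22 and Ctsk -0.51. In 2 alternatives chosen after seeing the data, thinning gave Egr3 -0.023 and Ccl8 -0.14, and leaving out the richest cell gave Col1a1 0.69, Col3a1 1.13, Ccl8 -0.021, Ctsk -0.80, Ccl17 -0.62 and Cxcl9 0.20. The cause was not tested, except that leaving out 1 cell shows its weight. Among other calls, 1.2-fold was no longer reached by Cxcl10, Ccl3, S100a4, Vcan and Folr2 without cells holding markers of another lineage (0.15, 0.13, 0.20, 0.21 and 0.25). The same held for Tapbp and Stab1 with thinning (0.24 and 0.25). It also held for Nr4a2 and Cx3cr1 at a C1q limit of 0.5% (0.23 and -0.25) and for Aldoa with cells averaged equally (-0.24). Of the 95 named genes past 1.2-fold, between 0 and 14 fell short of it under a setting. A gene at 50 UMIs has a wide counting interval, and the spread between animals could not be measured.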

Other observations

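Lipid handling genes of the macrophages that belong to no comparison above leaned higher in iIRE. Of 20, Lpl, Apoc2, Cd36, Abcg1 and Fabp5 were at least 1.2-fold higher and 0 at least 1.2-fold lower, beside 11.6% and 7.13% of all genes. The median log2 ratio was 0.15. Lpl, which frees fatty acids from lipoproteins, had 37.3 CPM in iIRE and 15.04 CPM in control (log2 ratio 0.92), and Apoc2, its cofactor, had 177 CPM in iIRE and 131 CPM in control (0.41). Of 20 genes for the engulfment of dying cells, Stab1, Cd36, Lrp1 and Sirpa were at least 1.2-fold higher, beside the same shares of all genes. Marco, a scavenger receptor, was at least 1.2-fold lower (-1.26, and -0.67 without the control cell richest in it).

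Hypoxia and glycolysis genes leaned lower in iIRE. Of 21, 6 (Slc2a1, Pfkfb3, Aldoa, Bnip3, Vegfa and Adm) were at least 1.2-fold lower and 0 at least 1.2-fold higher, beside 7.13% and 11.6% of all genes. The median was -0.13. Of 15 heme and iron genes, Tfrc and Steap3 were at least 1.2-fold higher, and Hmox1, Slc40a1 and Fth1 at least 1.2-fold lower. Without the control cell richest in each gene, the log2 ratio was -0.20 in place of -0.48 for Hmox1 and -0.09 in place of -0.41 for Slc40a1, which falls short of 1.2-fold.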
